A study of Homo sapiens with 6 samples.

Results

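Glutathione is the main small thiol of animal cells, and 10 genes of its synthesis, breakdown, recycling and use were followed here in NCI-H1299 cells treated with 6p. They are GCLC, GCLM and GSS (synthesis), CHAC1 and CHAC2 (breakdown), GSR (recycling), GPX1 and GPX4 (use against peroxides), and CBS and CTH (transsulfuration, which supplies cysteine). The genes were picked by name for their roles, with earlier results of these data known, and all 10 were found among the 16070 genes of the deposited table. NCI-H1299 is a human non-small cell lung carcinoma line. The compound 6p, which the labels call a platensimycin derivative, was given at 25 µM for 48 h to 3 samples, and 3 control samples received 0.1% DMSO, the vehicle, for 48 h. One label field calls the controls untreated while the protocol gives vehicle. Nothing in the labels says whether the samples of a group came from separate cultures, so p-values measure only the spread between these samples, which may be technical. RNA was measured as FPKM, fragments per kilobase of gene length and scaled by the library's total.

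Glutathione is built in 2 steps. Glutamate cysteine ligase, with GCLC as the catalytic subunit and GCLM as the modifier subunit, joins glutamate to cysteine, and glutathione synthetase (GSS) adds glycine. Cysteine enters cells as cystine or is made from homocysteine by cystathionine beta-synthase (CBS) and then cystathionine gamma-lyase (CTH). CHAC1 and CHAC2 are gamma-glutamylcyclotransferases that cleave glutathione inside the cell, and CHAC1 is a known target of the ATF4 branch of the integrated stress response. Glutathione peroxidases such as GPX1 and GPX4 spend glutathione on peroxides, GPX4 on those of membrane lipids, and glutathione reductase (GSR) restores the oxidised form.

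The promoters of CHAC1, CHAC2 and CTH are shown because the gene pair of breakdown moved in opposite directions and CTH rose with CHAC1. Each run holds the 250 bases before a start site in RefSeq on GRCh38.p14, on the plus strand, 5′ to 3′, and capitals mark a match to the core of the C/EBP-ATF response element, TGATGNAA, searched on both strands. The windows are chr15:40953221-40953470 for CHAC1, chr2:53767533-53767782 for CHAC2 and chr1:70411018-70411267 for CTH.
CHAC1: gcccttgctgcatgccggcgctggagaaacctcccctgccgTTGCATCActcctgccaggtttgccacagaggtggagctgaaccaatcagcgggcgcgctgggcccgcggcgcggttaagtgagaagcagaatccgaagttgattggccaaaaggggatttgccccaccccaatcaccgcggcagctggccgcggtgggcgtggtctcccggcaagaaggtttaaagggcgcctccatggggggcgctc
CHAC2: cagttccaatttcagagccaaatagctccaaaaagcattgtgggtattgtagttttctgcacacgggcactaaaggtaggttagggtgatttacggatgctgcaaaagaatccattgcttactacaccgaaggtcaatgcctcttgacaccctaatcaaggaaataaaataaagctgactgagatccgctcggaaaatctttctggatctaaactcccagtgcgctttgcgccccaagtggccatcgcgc
CTH: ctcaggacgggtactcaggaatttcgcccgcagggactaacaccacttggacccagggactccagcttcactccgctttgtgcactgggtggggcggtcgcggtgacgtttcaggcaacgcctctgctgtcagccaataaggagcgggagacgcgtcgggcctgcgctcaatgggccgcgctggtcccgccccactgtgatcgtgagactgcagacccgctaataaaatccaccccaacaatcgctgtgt
The CHAC1 match reads TGATGCAA on the minus strand. On the printed plus strand it reads TTGCATCA, and the first base of that reading lies at position -209 from the RefSeq start. The search covered the whole promoter window of the table, 250 bases before to 50 after a start. Neither the windows of both CHAC2 starts nor the CTH window held these letters. Of 35116 promoters in the table, 3.62% did. The core of the antioxidant response element, TGACNNNGC, occurred in 13.3% of promoters and, of the 8 genes with an entry here, in GCLM (TGACTAAGC, minus strand) and in 1 of 3 listed starts of CBS (TGACCGCGC). A match is a description of letters, and its use in these cells was not tested.

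Library totals, recovered from the FPKM values, ran from 16775655 to 19957335 fragments, and 1 fragment in a gene of 2 kb was worth 0.0251 to 0.0298 FPKM. Control replicate 3 and 6p replicate 1 stood apart from the rest of their groups by gene length: the rank correlation across genes between length and deviation from the rest of the group was -0.677 and -0.517 in these 2 libraries, against 0.362 to 0.645 in the other 4. The median log2 fold change fell from 0.25 in the tenth of genes with the shortest length to -0.22 in the tenth with the longest. For many of the results below, the value with the length trend removed is given as well. Of 11 markers in an epithelial and lung list, 8 were among the deposited genes and 4 reached 1 FPKM. KRT8 (281 to 354 FPKM), KRT18 (545 to 833) and VIM (2685 to 3060) were high in every library, and KRT7 was far lower. EPCAM, NKX2-1, KRT19 and NAPSA stayed under 1 FPKM, and CDH1, SFTPB and SFTPC were not listed. Of the 7 listed markers of blood, endothelial, fibroblast and liver cells none reached 1 FPKM, PTPRC and COL1A2 were at 0 in every library but 6p replicate 3 (0.0188 and 0.0118 FPKM), and the sums of the 7 were 0.313 to 0.483 FPKM in the control group and 0.201 to 0.472 in the 6p group.

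In 6p-treated cells CHAC1 rose 13-fold, CTH 3.20-fold, GSS 1.43-fold and GPX4 1.33-fold in mean FPKM, and CHAC2 fell to 0.769 of its control level. GCLC, GCLM, GSR and CBS did not pass the test, and GPX1, at 0.144 to 0.510 FPKM, was too low to be tested. The test was limma on log2(FPKM + 1) with Benjamini-Hochberg adjustment over the 11745 genes whose mean reached 0.5 FPKM, and the threshold was 0.05. Thus 4 of the 9 tested genes were higher and 1 was lower, where 21.3% of all tested genes were called higher and 25.1% lower. The lower count, 1 of 9, lies below the background share and is no result about these genes as a group. The median log2 fold change of the 9 was 0.42, against -0.04 over all tested genes. With the length trend removed, 5 were higher and 1 lower, with a median of 0.29, where 25.5% of all tested genes were called higher and 27.9% lower. Of all calls, 45.9% were higher and 54.1% lower. After rescaling to TPM, which moved the median of all genes to -0.21, the split was 27.7% and 72.3%.

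**Figure D1:**
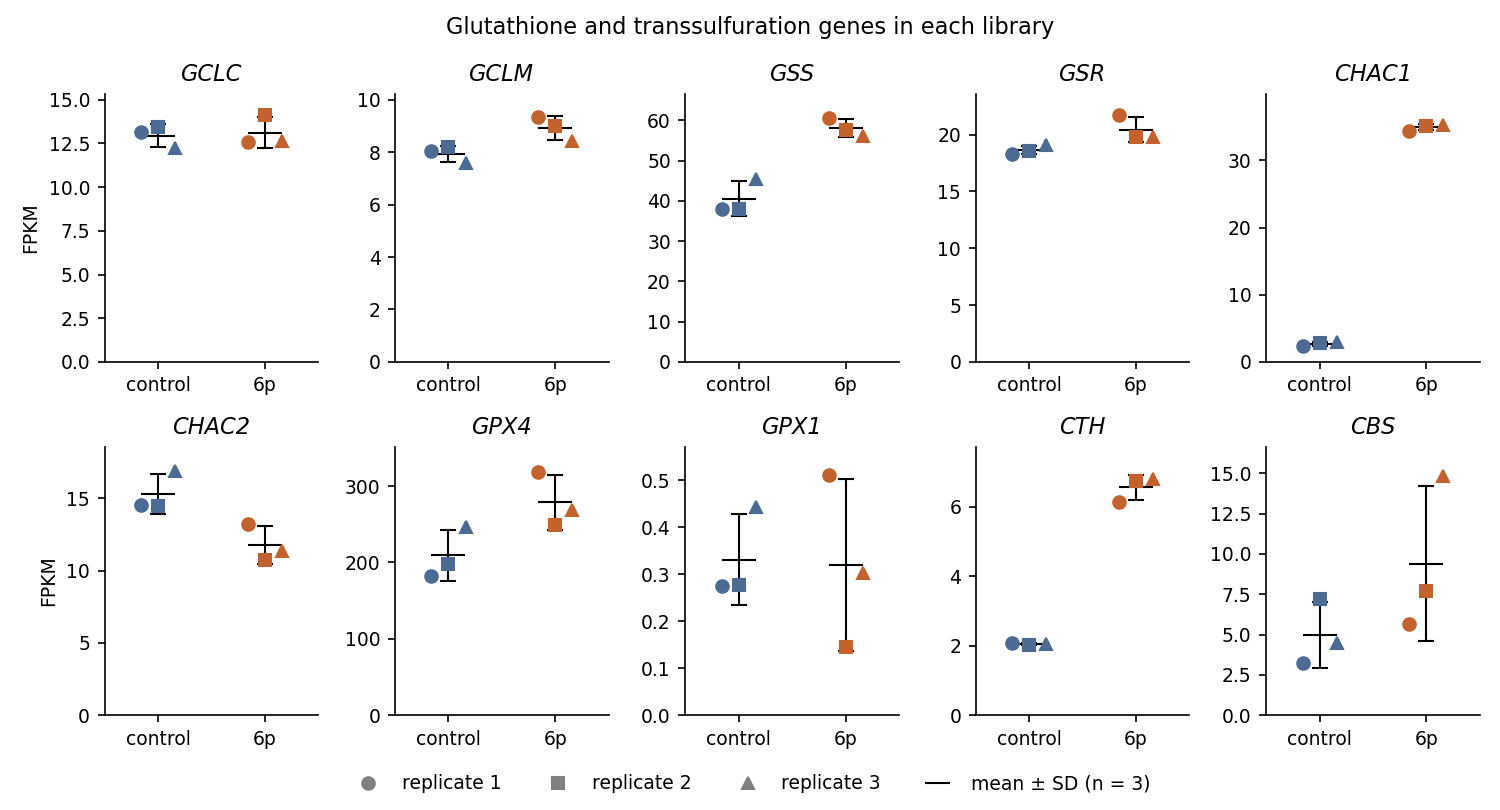
FPKM (vertical axes, each from 0) of the 10 genes in the 3 control and 3 6p libraries, with points for replicates and bars for the mean ± SD. CHAC1 sits at 2.30 to 2.98 FPKM in control and 34.4 to 35.2 in 6p libraries, while the groups overlap for GCLC, GPX1 and CBS.

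CHAC1 (NCBI gene 79094, chr15:40952962-40956519, plus strand, GENCODE 29 on GRCh38) is a stress-induced enzyme that cleaves glutathione into 5-oxoproline and cysteinylglycine. Its level was 2.30, 2.78 and 2.98 FPKM in control replicates 1 to 3 and 34.4, 35.1 and 35.2 FPKM in 6p replicates 1 to 3. The lowest 6p library stood far above the highest control, and the 6p replicates lay close together. The means were 2.69 ± 0.349 and 34.9 ± 0.429 FPKM (SD, n = 3 each), a log2 fold change of 3.29 ± 0.09 (SE, limma, adjusted p = 5.24e-07). Removing the length trend gave 3.32. These values rest on 159 to 213 fragments in control and 2200 to 2557 in 6p libraries. In bulk RNA a change in the share of cells that express a gene and a change in RNA per cell cannot be told apart.

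CHAC2 (NCBI gene 494143, chr2:53767792-53775196, plus strand) encodes the related enzyme, which is known to cleave glutathione more slowly and to be present in unstressed cells. It gave 14.5, 14.5 and 16.9 FPKM in control replicates 1 to 3 and 13.2, 10.8 and 11.3 FPKM in 6p replicates 1 to 3. All 3 6p libraries were below all 3 controls, with 6p replicate 1 nearest to them. CHAC2 fell by 0.35 on the log2 scale (SE 0.10, limma, adjusted p = 0.0198), from 15.3 ± 1.37 to 11.8 ± 1.28 FPKM (SD, n = 3 each). This gene is short, 1330 nt, and fell by 0.58 once the length trend was taken out (limma, adjusted p = 6.17e-05). The call was lost without 6p replicate 2 (limma, adjusted p = 0.0677) or 6p replicate 3 (limma, adjusted p = 0.0675) and after recentring each library on its median (limma, adjusted p = 0.0815).

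FPKM is per length, so the 2 enzymes were set side by side within a library, though the length trend described above remains in FPKM. The ratio of CHAC1 to CHAC2 was 0.158, 0.192 and 0.177 in control replicates 1 to 3 and 2.60, 3.26 and 3.11 in 6p replicates 1 to 3. CHAC2 RNA was thus the more abundant in all 3 controls and CHAC1 RNA in all 3 6p libraries. The geometric mean of the ratio went from 0.175 to 2.98, a 17-fold difference (two-sided exact permutation test, p = 0.1, adjusted over 4 ratios 0.2). With 3 libraries a group that test cannot go below 0.1.

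The genes whose pattern over the 6 libraries was most like that of CHAC1 were UPP1, GDF15, SESN2, TRIB3 and ASNS. Likeness was the Euclidean distance between log2(FPKM + 1) values, each set against the gene's control mean, among all tested genes. The distances were 0.394 for UPP1 (uridine phosphorylase), 0.496 for GDF15 (a secreted stress cytokine), 0.543 for SESN2 (a sestrin), 0.546 for TRIB3 (a pseudokinase) and 0.717 for ASNS (asparagine synthetase). TRIB3 rose from 8.67 ± 0.869 to 116 ± 1.49 FPKM and ASNS from 75.2 ± 5.49 to 561 ± 28.7 FPKM (SD, n = 3 each). A change close to that of CHAC1 is what selected these genes, so their likeness is a description.

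In the synthesis arm GSS rose and the ligase did not pass the test. GSS (NCBI gene 2937, chr20:34928433-34956027, minus strand), which adds glycine in the last step, was at 38.1, 38.1 and 45.5 FPKM in control replicates 1 to 3 and at 60.5, 57.6 and 56.2 FPKM in 6p replicates 1 to 3. The groups did not overlap. Its mean went from 40.5 ± 4.27 to 58.1 ± 2.21 FPKM (SD, n = 3 each), a log2 fold change of 0.51 ± 0.09 (SE, limma, adjusted p = 0.00259). Removing the length trend gave 0.49.

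GCLC (NCBI gene 2729, chr6:53497341-53616970, minus strand), the catalytic subunit of the rate-limiting ligase, was at 13.2, 13.4 and 12.2 FPKM in control replicates 1 to 3 and at 12.6, 14.1 and 12.6 FPKM in 6p replicates 1 to 3. These values overlapped, and the log2 fold change was 0.02 ± 0.08 (SE, limma, adjusted p = 0.881). GCLM (NCBI gene 2730, chr1:93885205-93909456, minus strand), the modifier subunit, was at 8.03, 8.19 and 7.60 FPKM in control replicates 1 to 3 and at 9.35, 9.0 and 8.43 FPKM in 6p replicates 1 to 3. Every 6p value lay above every control value in FPKM, but the log2 fold change of 0.15 ± 0.07 did not pass (SE, limma, adjusted p = 0.128). This gene is long, 6380 nt, and passed at 0.29 once the length trend was taken out (limma, adjusted p = 0.0162). Of 20 alternative settings GCLM passed in 2, both with that trend removed.

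The ratio of GCLM to GCLC was 0.609, 0.609 and 0.622 in control replicates 1 to 3 and 0.744, 0.637 and 0.668 in 6p replicates 1 to 3. All 3 6p ratios were above the controls, by 1.11-fold in the geometric mean (two-sided exact permutation test, p = 0.1, adjusted over 4 ratios 0.2). The log2 difference of 0.15 was 0.13 on log2(FPKM + 1), and 0.27 on that scale with the length trend removed. Without 6p replicate 1 the difference was 0.088.

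In transsulfuration CTH rose, and the CBS row alone did not pass the test. CTH (NCBI gene 1491, chr1:70411218-70439851, plus strand), which releases cysteine from cystathionine, was at 2.09, 2.02 and 2.05 FPKM in control replicates 1 to 3 and at 6.15, 6.74 and 6.79 FPKM in 6p replicates 1 to 3. The controls lay within 0.1 FPKM of each other and well below the 6p libraries. The means were 2.05 ± 0.0362 and 6.56 ± 0.356 FPKM (SD, n = 3 each), a log2 fold change of 1.31 ± 0.08 (SE, limma, adjusted p = 1.96e-05). Removing the length trend gave 1.23. The counts behind them were 89 to 94 fragments in control and 273 to 294 in 6p libraries.

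CBS (NCBI gene 875, chr21:43053191-43076943, minus strand), which condenses homocysteine with serine, was at 3.24, 7.22 and 4.47 FPKM in control replicates 1 to 3 and at 5.66, 7.71 and 14.8 FPKM in 6p replicates 1 to 3. The groups overlapped, and the log2 fold change was 0.76 ± 0.33 (SE, limma, adjusted p = 0.0930). Of 20 alternative settings CBS passed in 2. These were without 6p replicate 1 (limma, adjusted p = 0.0387) and with the length trend removed plus a replicate block (0.0417). With the length trend removed alone it did not pass (0.134). GRCh38 holds a near-identical copy, CBSL (NCBI gene 102724560, chr21:6444869-6468040, minus strand), with a row of its own. The 2453-nt GENCODE 29 transcripts CBS-203 and CBSL-206 differ by a single coding base, C807T (CBS base first, counted from 1 at the transcript's 5′ end). Reads from these transcripts that miss that base cannot be assigned to either copy by sequence. The 61 bases around it are shown, from chr21:43065210-43065270 and chr21:6456888-6456948 on GRCh38, minus strand, 5′ to 3′, with the differing base in capitals.
CBS-203: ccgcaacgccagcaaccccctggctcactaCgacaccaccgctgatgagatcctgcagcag
CBSL-206: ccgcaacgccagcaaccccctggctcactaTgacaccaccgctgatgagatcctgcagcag

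CBSL took 49.1%, 2.26% and 49.9% of the summed FPKM of both copies in control replicates 1 to 3, and 49.1%, 35.9% and 2.31% in 6p replicates 1 to 3. The split was near even in 3 libraries and almost wholly to CBS in 2, with libraries of both groups in each set. The rule for counting reads that match both copies was not given in the sources used here. The sum, formed after the split had been seen, was 6.37, 7.39 and 8.92 FPKM in control replicates 1 to 3 and 11.1, 12 and 15.2 FPKM in 6p replicates 1 to 3. Summed, the groups no longer overlapped. The summed means were 7.56 ± 1.29 and 12.8 ± 2.12 FPKM (SD, n = 3 each), a log2 fold change of 0.69 ± 0.14 (SE, limma, adjusted p = 0.00573). Over the 11 alternatives run for the sum the adjusted p of limma ran from 2.76e-05 to 0.0234. TPM, median recentring, quantile normalization and limma voom were not among them.

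**Figure D2:**
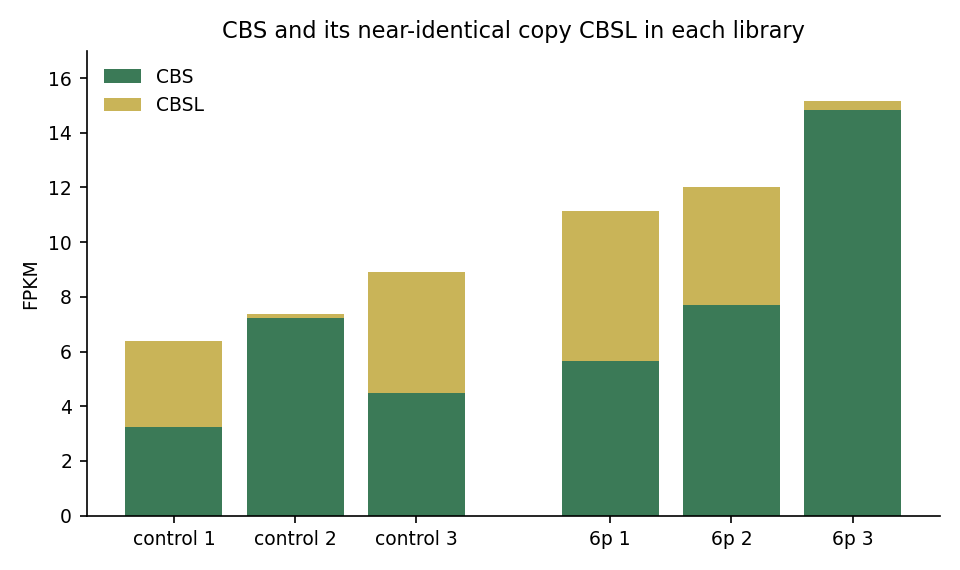
FPKM (vertical axis) of CBS and of its near-identical copy CBSL, stacked, in each of the 6 libraries. The summed bars run from 6.37 to 8.92 FPKM in control and from 11.1 to 15.2 FPKM in 6p libraries, while the CBSL part varies from 0.167 to 5.46 FPKM, with low and high values in both groups.

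The ratio of CTH to CBS was 0.646, 0.280 and 0.457 in control replicates 1 to 3 and 1.09, 0.874 and 0.459 in 6p replicates 1 to 3, and the groups overlapped (two-sided exact permutation test, p = 0.2, adjusted over 4 ratios 0.267). Against CBS plus CBSL the ratio was 0.329, 0.274 and 0.229 in control replicates 1 to 3 and 0.553, 0.560 and 0.448 in 6p replicates 1 to 3. By that measure all 3 6p libraries lay above all 3 controls, at a geometric mean of 0.518 against 0.274 (two-sided exact permutation test, p = 0.1).

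GPX4 (NCBI gene 2879, chr19:1103926-1106791, plus strand), the selenoenzyme that reduces lipid hydroperoxides and guards against ferroptosis, was the most abundant of the 10 genes. It was at 183, 198 and 247 FPKM in control replicates 1 to 3 and at 318, 249 and 268 FPKM in 6p replicates 1 to 3. Control replicate 3 and 6p replicate 2 nearly met, and 6p replicate 1 was highest. GPX4 rose from 209 ± 33.6 to 279 ± 35.6 FPKM (SD, n = 3 each), a log2 fold change of 0.42 ± 0.14 (SE, limma, adjusted p = 0.0390). Removing the length trend left 0.16 for this gene of 1153 nt (limma, adjusted p = 0.0357). The call did not survive leaving out control replicate 1 (limma, adjusted p = 0.130), leaving out control replicate 2 (0.128), leaving out 6p replicate 1 (0.0968) or leaving out 6p replicate 3 (0.0805). It was also lost in TPM (0.057), with no filter (0.0679) or after median recentring (0.0556).

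GPX1 (NCBI gene 2876, chr3:49357171-49358600, minus strand), the peroxidase of the cytosol, was listed at 0.275, 0.277 and 0.442 FPKM in control replicates 1 to 3 and at 0.510, 0.144 and 0.304 FPKM in 6p replicates 1 to 3. These are 3 to 12 fragments per library, and the groups overlapped. GENCODE 29 classes the gene as a polymorphic pseudogene. Whether the counting left out its reads was not tested. The GPX4 to GPX1 ratio, 559 to 714 in control and 624 to 1730 in 6p libraries, rests on those few fragments (two-sided exact permutation test, p = 0.3).

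GSR (NCBI gene 2936, chr8:30678061-30727999, minus strand), which returns oxidised glutathione to its reduced form, was at 18.3, 18.6 and 19.1 FPKM in control replicates 1 to 3 and at 21.7, 19.8 and 19.8 FPKM in 6p replicates 1 to 3. In FPKM the 6p values all lay above the controls, 2 of them by less than 1 FPKM. The log2 fold change of 0.12 ± 0.07 did not pass (SE, limma, adjusted p = 0.176).

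**Figure D3:**
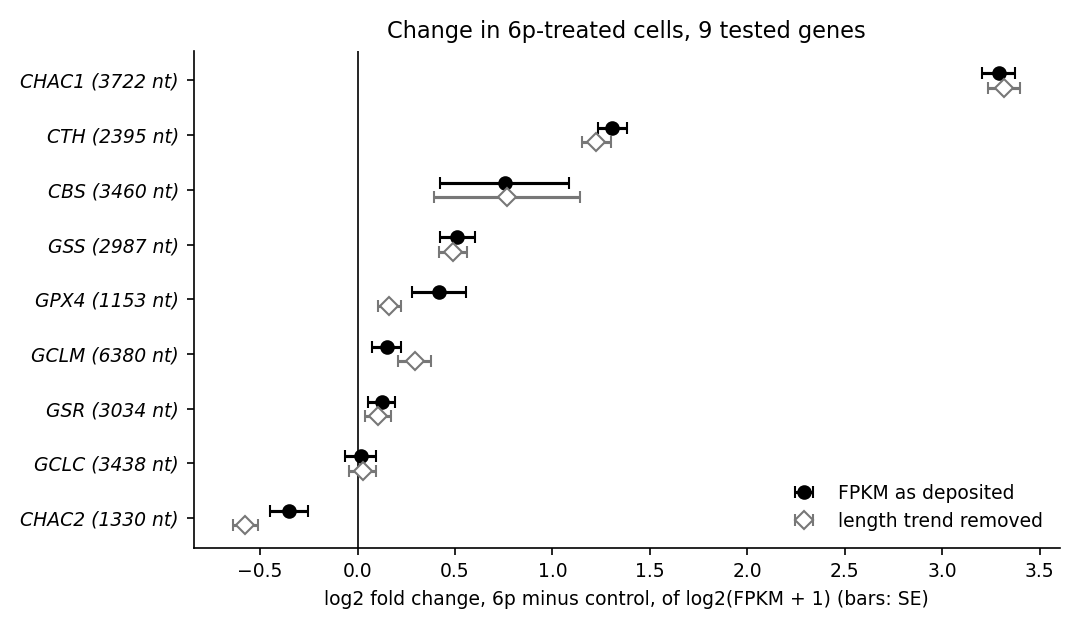
Log2 fold change of 6p against control on the log2(FPKM + 1) scale (horizontal axis, bars SE) for the 9 tested genes, with gene length in nt beside each name. Filled circles are FPKM as deposited and open diamonds have the length trend removed; CHAC1 and CTH lie at 3.29 and 1.31 as deposited, and the markers part most for the short GPX4 and CHAC2.

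By level, the control order was GPX4, GSS, GSR, CHAC2, GCLC, GCLM, CBS, CHAC1, CTH and GPX1. In the control group no 2 neighbours in this order had overlapping ranges, with CBS taken as its row alone. Summed with CBSL it spanned 6.37 to 8.92 FPKM, which overlaps GCLM, so the rank of CBS is not resolved. In the 6p group CHAC1 moved from rank 8 to rank 3, behind GPX4 and GSS. The ranges of GCLC and CHAC2, of CHAC2 and CBS, and of CBS and GCLM overlapped there. The CBS row also overlapped GCLC and CTH. The place of CBS among these genes and the order of GCLC and CHAC2 are thus not resolved.

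Other genes that handle glutathione and its parts outside these 10 were counted by list, to be read against the 21.3% higher and 25.1% lower among all tested genes. Of 10 tested genes of the gamma-glutamyl cycle and peptidases, 6 rose and none fell in limma, with a median log2 fold change of 0.46. The number lower was 0 also at an unadjusted p under 0.05 and in limma voom on the recovered fragments. With the length trend removed 6 rose and 2 fell, and without control replicate 3 the number lower was 1. In TPM 5 rose and 2 fell, and without control replicate 2 the number higher was 4. OPLAH, the 5-oxoprolinase that turns the product of the cyclotransferases back into glutamate, rose from 1.85 ± 0.113 to 6.48 ± 0.657 FPKM (SD, n = 3 each, log2 fold change 1.39 ± 0.09). DPEP3, of the dipeptidase family, rose from 5.82 ± 0.920 to 12.6 ± 0.659 FPKM. The aminopeptidase ANPEP rose by 0.64 ± 0.12 and the gamma-glutamylamine cyclotransferase GGACT by 0.38 ± 0.08 (log2, SE). GGACT was low, with a mean of 0.523 FPKM in control and 0.985 FPKM in 6p libraries, a 1.88-fold change.

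Of 13 tested genes of cystine and cysteine supply and glutathione transport, 5 rose and 2 fell, with a median of 0.14, and 6 rose and 2 fell once the length trend was removed. Both chains of the cystine and glutamate exchanger were among those that rose. SLC7A11, its light chain, was at 2.63, 2.18 and 1.81 FPKM in control replicates 1 to 3 and at 7.92, 8.60 and 8.43 FPKM in 6p replicates 1 to 3. The groups were well apart, with a log2 fold change of 1.54 ± 0.10 (SE, limma, adjusted p = 3.88e-05), or 1.76 with the length trend removed. SLC3A2, the heavy chain, rose from 74.4 ± 5.65 to 187 ± 13.9 FPKM, and the neutral amino acid transporters SLC1A4 and SLC1A5 rose by 1.60 ± 0.12 and 0.67 ± 0.08 (log2, SE).

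Of 24 tested genes of the methionine cycle and sulfur metabolism, 8 rose and 4 fell, with a median of 0.11, and 9 rose and 3 fell once the length trend was removed. The number lower was 1 without control replicate 1, control replicate 2 or 6p replicate 1, and 2 without 6p replicate 3. The transaminase GOT1 rose from 41.8 ± 3.96 to 99.5 ± 5.24 FPKM (SD, n = 3 each). The cysteine sulfinic acid decarboxylase CSAD rose by 0.62 ± 0.07 (log2, SE). TSTD1, a thiosulfate sulfurtransferase of 653 nt, rose by 1.28 ± 0.16, or 0.92 with the length trend removed. PEMT, which methylates phosphatidylethanolamine, rose by 0.59 ± 0.08, or 0.40 with the length trend removed.

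Beyond GPX1 and GPX4, 2 glutathione peroxidases were tested, and both were called higher. GPX8, of the endoplasmic reticulum, rose from 19.2 ± 0.581 to 23.5 ± 0.679 FPKM (SD, n = 3 each), a log2 fold change of 0.28 ± 0.07, which did not pass in TPM (limma, adjusted p = 0.330). GPX3, the secreted form, rose by 0.43 ± 0.12 (SE, limma, adjusted p = 0.0201), a call lost once the length trend was removed (limma, adjusted p = 0.0572), in TPM (0.0878), without control replicate 2 (0.0761), without 6p replicate 1 (0.0535) and without 6p replicate 3 (0.0667).

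Among 15 tested glutathione S-transferases and glyoxalases 8 rose and 2 fell, with a median of 0.23. The number higher was 5 without control replicate 1 and 4 without control replicate 2. The number lower was 0 after median recentring and without control replicate 1, control replicate 2 or 6p replicate 3, and 1 without 6p replicate 1 or 2. GSTK1 rose from 53.9 ± 4.90 to 79.4 ± 7.04 FPKM (SD, n = 3 each), a log2 fold change of 0.55 as deposited and 0.28 with the length trend removed. The glyoxalase HAGH rose by 0.64 ± 0.12 and the mu class transferases GSTM4 and GSTM3 by 0.48 ± 0.11 and 0.48 ± 0.12 (log2, SE). In mean FPKM GSTM4 went from 1.83 to 2.95 and GSTM3 from 3.75 to 5.59. These 2 belong to a family of related genes, and whether the counting split reads between its members was not tested.

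The glutaredoxin and thioredoxin systems, which reduce disulfides beside glutathione, had 7 of 16 tested genes higher and none lower in limma, with a median of 0.24. Again 0 were lower at an unadjusted p under 0.05 and in limma voom. With the length trend removed 6 were higher and 2 lower, and 4 were higher without control replicate 1 or in TPM. TXNRD1, the cytosolic thioredoxin reductase, rose from 83.1 ± 6.14 to 131 ± 8.11 FPKM and SRXN1, sulfiredoxin, from 33.1 ± 1.03 to 46.9 ± 1.83 FPKM (SD, n = 3 each). TXN, thioredoxin itself, rose by 0.69 ± 0.17 (log2, SE), or 0.36 with the length trend removed. MSRB2, a methionine sulfoxide reductase of mitochondria, rose by 0.74 ± 0.12. It was low, and its mean went from 1.27 to 2.79 FPKM, a 2.19-fold change.

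GPX4 is a selenoprotein, and of 11 tested genes of selenoprotein synthesis 3 rose and 2 fell, with a median of 0.09. These counts lie near the shares over all tested genes and are no result about the list. With the length trend removed 5 rose and 1 fell, and the number lower was 1 on leaving out any single library other than control replicate 3 and 6p replicate 2. SARS1, the seryl-tRNA synthetase that also charges the selenocysteine tRNA, rose from 80.2 ± 5.25 to 224 ± 4.26 FPKM, and SEPHS2, which makes selenophosphate, from 62.2 ± 4.19 to 103 ± 6.20 FPKM (SD, n = 3 each). SCLY, selenocysteine lyase, fell by 0.42 on the log2 scale. LRP8, a receptor for selenoprotein P, fell by 0.35 (SE 0.11, limma, adjusted p = 0.0274), a call lost once the length trend was removed (limma, adjusted p = 0.0540), without control replicate 1 (0.0977), without control replicate 2 (0.0976), without 6p replicate 1 (0.0651) and without 6p replicate 3 (0.0554).

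Of 18 tested regulators in the list, transcription factors, stress kinases and KEAP1, 7 rose and 4 fell, and the median was -0.13. The number lower was 1 without control replicate 1 or control replicate 2, 2 without 6p replicate 1 and 8 in TPM. DDIT3, the stress factor CHOP, rose from 23.5 ± 3.54 to 171 ± 18.8 FPKM (log2 fold change 2.81, or 2.51 with the length trend removed) and CEBPB from 13.9 ± 2.12 to 72.2 ± 5.07 FPKM (SD, n = 3 each). CEBPG rose by 1.46 ± 0.06 and ATF3 by 1.48 ± 0.09 (log2, SE). In mean FPKM the change was 2.80-fold for CEBPG, from 40.6 to 114, and 3.82-fold for the low ATF3, from 1.75 to 6.69. The 4 lower genes, with ATF4 and NFE2L2, fell outside the rule for named genes and were chosen after their values were seen. ATF5, a factor related to ATF4, fell from 22.9 ± 1.25 to 11.9 ± 1.94 FPKM (SD, n = 3 each), by 0.90 on the log2 scale (limma, adjusted p = 0.000603). The eIF2alpha kinase genes EIF2AK2, EIF2AK3 and EIF2AK4 fell by 0.50, 0.27 and 0.46, calls that were lost without control replicate 1 or control replicate 2. Those of EIF2AK2 and EIF2AK3 were lost without 6p replicate 1 too. For EIF2AK3 the call was also lost without control replicate 3, without 6p replicate 2 and once the length trend was removed (limma, adjusted p = 0.0837). ATF4 rose from 36.7 ± 3.29 to 76.0 ± 4.16 FPKM, a log2 fold change of 1.03 ± 0.09, or 1.21 with the length trend removed. NFE2L2 RNA was at 35.5 ± 1.10 and 38.2 ± 0.980 FPKM, a log2 fold change of 0.10 ± 0.07 that did not pass (SE, limma, adjusted p = 0.222).

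**Figure D4:**
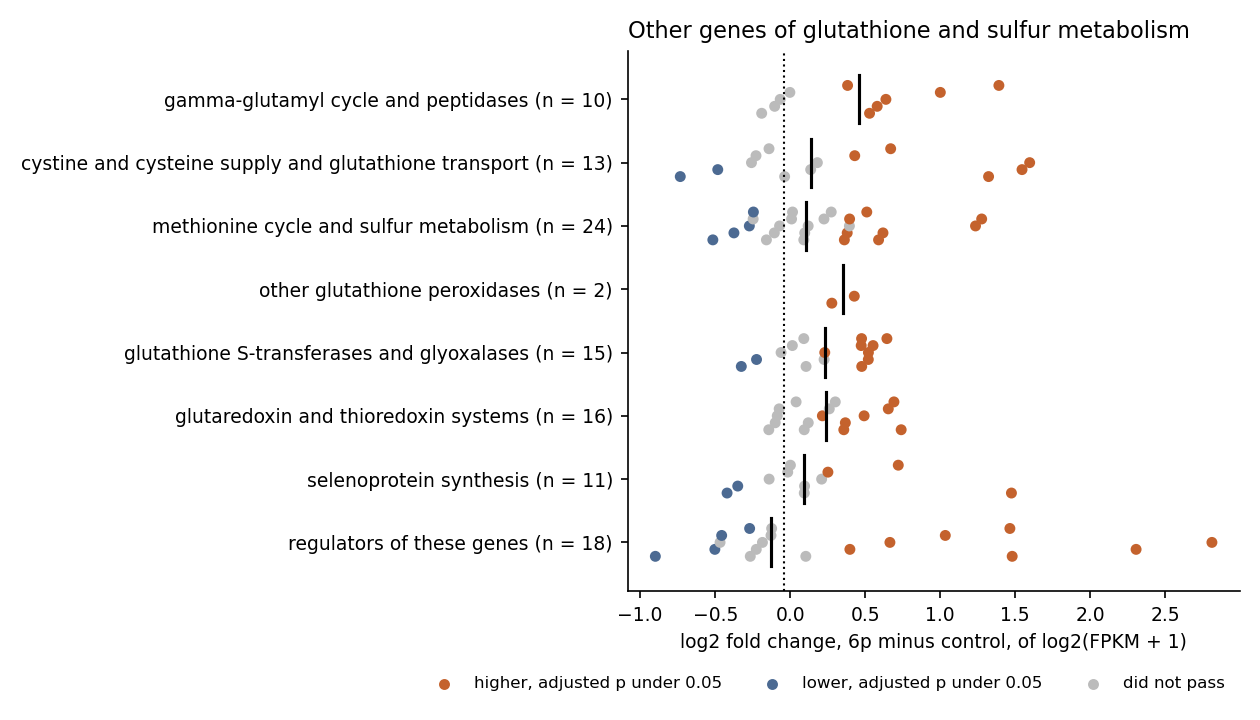
Log2 fold change of 6p against control on the log2(FPKM + 1) scale (horizontal axis) for the tested genes of 8 lists beside the 10 genes, 1 point a gene, coloured by call; black bars are list medians and the dotted line is the median of all tested genes, -0.04. The gamma-glutamyl list has the highest median, 0.46, and DDIT3, at 2.81, is the point farthest to the right.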

How the data were processed

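The authors deposited FPKM values for 16070 genes in 6 libraries, from TruSeq stranded mRNA libraries of TRIzol RNA, per the labels' protocols. Trimmomatic, HISAT2, HTSeq, Cufflinks and GRCh38 are named in the submitters' processing notes, with roles, versions and annotation release not given in the sources used here. Columns of sample values left unused numbered 0. Fragments were recovered from the FPKM steps with Python 3.11.15 (100% of 11745 tested genes whole within 0.01 of a fragment; listed genes held 99.6% of each total). Genes whose mean reached 0.5 FPKM were fitted with limma 3.58.1 in R 4.3.3 (eBayes with trend and robust, two-sided) on log2(FPKM + 1), a scale that understates changes of low genes. The length trend was removed with a loess of span 0.5 per library. Within-library ratios used exact permutation tests. Named genes were the 10 members and, of each list, up to 4 with the smallest adjusted p. Members, lists and tests were chosen with earlier results of these data known.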

Additional observations from a re-analysis of the deposited data

How the results depend on the processing

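The counts of the 9 tested genes were recomputed under 20 alternatives. The number higher ran from 3 to 5, and CHAC1, CTH and GSS passed wherever they were tested. The number lower, 1 for CHAC2, was 0 after median recentring and 0 with the replicate block, and ran from 0 to 1 when single libraries were left out (0 without 6p replicate 2 or 3). Among the 10 genes and CBSL, direction turned only for values that had not passed: in TPM the log2 fold change was -0.16 for GCLC, -0.011 for GCLM and -0.048 for GSR, against -0.21 for all genes, and leaving out single libraries gave -0.036 to 0.042 for GCLC and -0.40 to 0.98 for CBSL. Over all genes, main counts of 2506 higher and 2951 lower became 1526 higher and 3991 lower in TPM. Without control replicate 2 they were 1724 higher and 1793 lower. Without both control replicate 3 and 6p replicate 1 they grew to 3555 higher and 4187 lower.

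The replicate block gave 3 of the 9 higher and 0 lower, without GPX4 (limma, adjusted p = 0.0956) and CHAC2 (0.0564), and 1774 higher and 1920 lower genes. It also took the calls of GPX8 (0.0538) and LRP8 (0.0789; 0.112 with the length trend removed as well). Under the block the transferase list had 5 higher and 0 lower, the thioredoxin list 4 higher, and the methionine, selenoprotein and regulator lists 1 lower each, with 1 of the other peroxidases higher. Same-numbered libraries correlated at -0.57, 0.33 and -0.42 in their deviations, so the numbers were not taken as pairs, and not every library correlated best with its own number.

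FPKM values carry no count of cells, and 3 libraries a group cannot bring an exact test below 0.1. The compared transcripts of CBS and CBSL differ by a single base, and the share of reads that can separate the copies was not measured. GPX1 rests on 3 to 12 fragments.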

Other observations

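A second gene with a copy on chromosome 21 of GRCh38, U2AF1, a splicing factor, was looked at after the uneven split of CBS and CBSL had been seen. Its copy U2AF1L5 took 80.1%, 82.4% and 83.0% of their summed FPKM in control replicates 1 to 3 and 81.4%, 91.5% and 78.1% in 6p replicates 1 to 3. The sum itself varied from 8.27 to 22.0 FPKM within the control group and from 8.33 to 22.3 FPKM within the 6p group.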
